A study of Mus musculus with 26 samples.

Results

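A set of 9 genes of histamine and serotonin metabolism were followed by RNA sequencing in mouse bone marrow progenitors and in cultured mast cells, with and without the neutrophil serine protease NSP4, which is encoded by Prss57. The genes were taken by symbol, and all 9 were found among the 52636 genes measured. They cover synthesis (Hdc, Tph1, Ddc), transport (Slc18a2, Slc6a4, Slc22a3) and breakdown (Hnmt, Maoa, Maob).

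Histamine is made from histidine in a single step by histidine decarboxylase (Hdc). Serotonin is made from tryptophan by tryptophan hydroxylase (Tph1 outside the brain) and then aromatic L-amino acid decarboxylase (Ddc), and the first of these enzymes needs tetrahydrobiopterin as cofactor. Mast cells carry both amines into secretory granules through the vesicular monoamine transporter VMAT2 (Slc18a2), hold them there bound to proteoglycans, and release them when the IgE receptor is crosslinked. Outside the granule, histamine is methylated by histamine N-methyltransferase (Hnmt), serotonin is deaminated by the monoamine oxidases (Maoa, Maob), and the amines cross the plasma membrane through the serotonin transporter (Slc6a4) and the organic cation transporter OCT3 (Slc22a3).

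The 26 libraries fall into 6 groups. Granulocyte-macrophage progenitors (GMPs) and common myeloid progenitors (CMPs) were sorted from bone marrow of female mice and sequenced in one run by their labels, with 4 wild-type (WT) and 4 NSP4 knockout (NSP4 KO, Prss57-/-) libraries of each. Bone marrow-derived mast cells (BMMCs, labelled BMMC-P3) came from male mice and another run, with 5 WT and 5 NSP4 KO libraries. The study describes BMMCs as GMP-derived cells grown with IL-3 and stem cell factor, and Prss57-/- mice as germline deletions made in C57BL/6N embryonic stem cells and compared with littermates. GMPs were gated as Lin-, SCA-1-, CD117+, CD34+ and CD16/32hi cells, and CMPs as the same cells with low CD16/32. The bone marrow used for flow cytometry with these gates came from mice a few months old, and no age was given for the sequenced mice in the sources used here. Cell type, sex, run and culture differ together between BMMCs and the progenitors and cannot be told apart. Libraries held between 35501671 and 51497962 reads on genes for GMPs, between 32078404 and 53264762 for CMPs, and between 18627626 and 28647216 for BMMCs. The study describes the libraries of a genotype as biological replicates, while the labels name no mouse or culture, so p-values measure the spread between these libraries. Levels are given as normalized RPKM, the study's depth-adjusted reads per kilobase, and errors as SD over libraries. A gene is called here when edgeR's adjusted p is under 0.01 and the change is at least 2-fold, the limits the study used.

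Prss57 itself checked the labels. It was at 145 ± 35.7 normalized RPKM in WT GMPs and 0.132 ± 0.0626 in Prss57-/- GMPs (n = 4 each), at 23.2 ± 7.47 in WT CMPs and 0.00798 ± 0.0034 in Prss57-/- CMPs (n = 4 each). In BMMCs it was near 0 in both genotypes, with 2 to 27 reads per WT library and 0 reads in every Prss57-/- library. Of the 9 mast cell markers checked, all had reads in BMMCs, and their summed level was 38174 normalized RPKM in WT BMMCs against 420 in WT GMPs and 148 in WT CMPs. Tpsb2, a mast cell tryptase that may share reads with its close copy Tpsab1, was the most abundant of them in BMMCs. The markers Tpsab1 and Mrgprb1 were at 0 reads in every progenitor library.

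One library stood apart. In Prss57-/- BMMC library 3, 10 of 11 macrophage and dendritic cell markers were lower than in all 9 other BMMC libraries, and their sum was 250.5 normalized RPKM against 1702 to 2902. The most abundant of them, Cd74, was at 40.4 there and at 588.7 to 1317 in the others. The exception was Cx3cr1, the fractalkine receptor, at 88.1 there and at 1.63 to 5.11 in the others. In the same library 6 of 9 mast cell markers were higher than in the other 9, with the granule protease Cma1 at 14490 normalized RPKM against 1565 to 3836. The tryptase Tpsab1 was lower there, at 13.3 against 513 to 1178, and so was the receptor Mrgprb1, at 1.45 against 2.16 to 6.64, while Tpsb2 lay within the range of the others. All 9 amine genes also lay outside the range of the other 9 BMMC libraries. So did all 11 macrophage and dendritic cell markers and all 5 basophil markers (2 lowest and 3 highest). Of the 4 neutrophil granule genes, 1 was lowest and 1 highest. The trait was thus not particular to the amine genes, and the share of all genes outside that range was not worked out. Results that rest on this library are given with and without it.

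**Figure D1:**
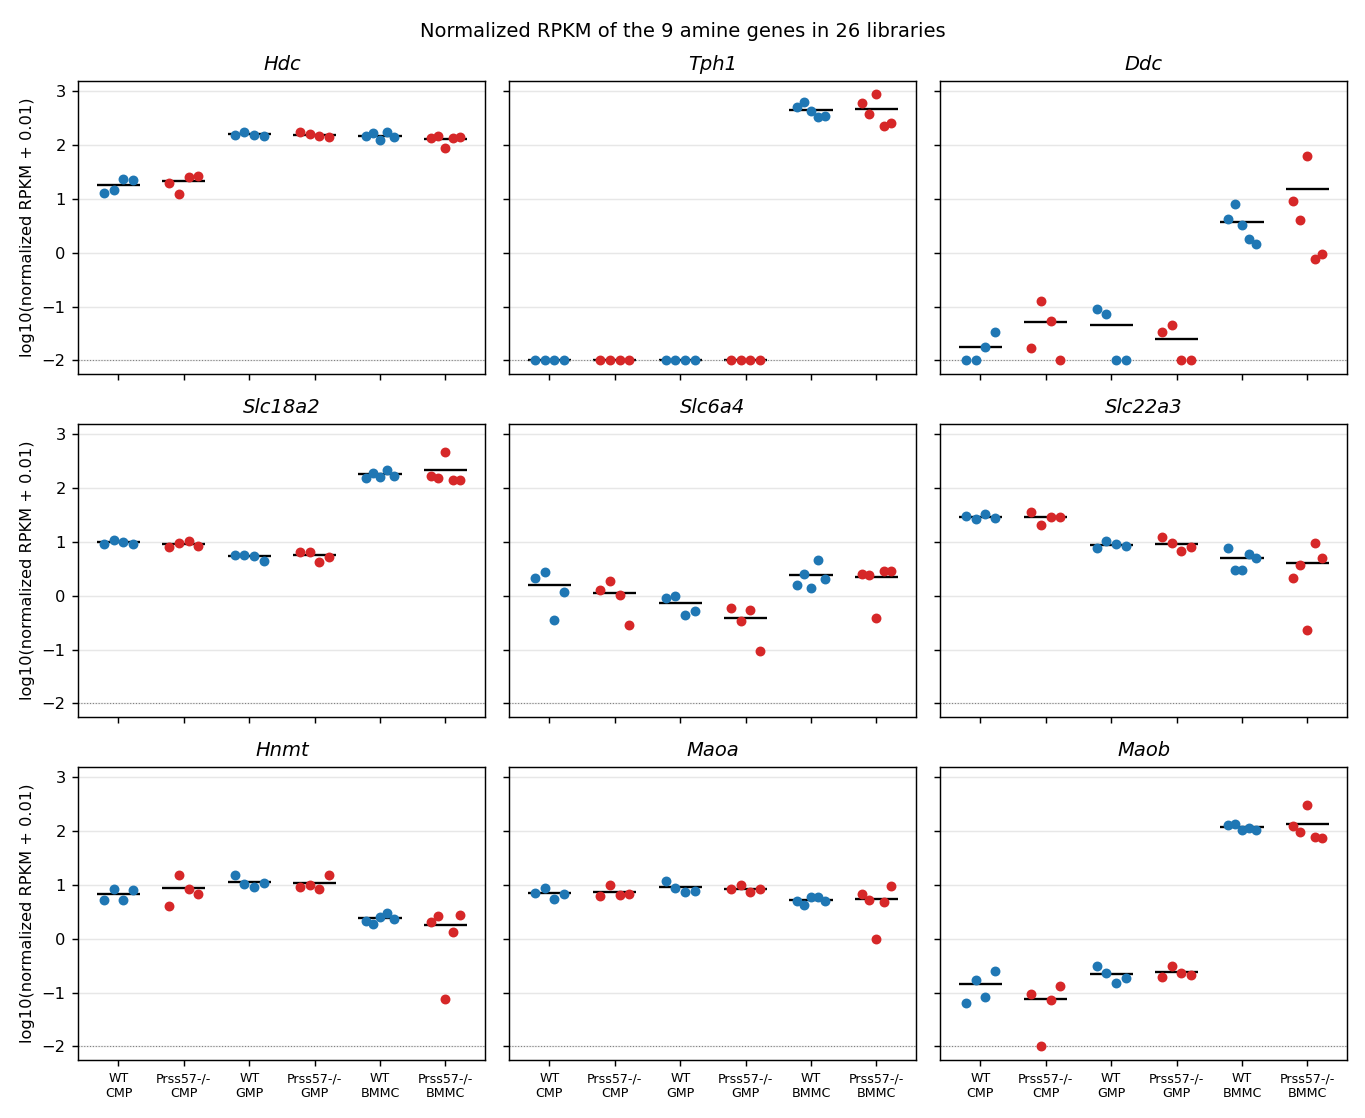
Normalized RPKM of the 9 amine genes in every library, on a log10 scale after adding 0.01. Each point is a library, blue for wild type and red for Prss57-/-, black bars are group means, and the dotted line is 0. Hdc lies between 88.6 and 178 in every GMP and BMMC library, while Tph1 is at 0 in all 16 progenitor libraries and Maob is high in BMMCs alone.

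Hdc (ENSMUSG00000027360, GRCm38 chr2:126593667-126619299, minus strand) was the most abundant of the 9 in GMPs. It read 152, 178, 153 and 150 normalized RPKM in the 4 WT GMP libraries and 172, 158, 149 and 145 in the 4 Prss57-/- GMP libraries. The WT CMP libraries were at 12.9, 14.4, 23.2 and 22.2, and the Prss57-/- CMP libraries at 20.1, 12.5, 25.4 and 26.5. GMPs and CMPs did not overlap in either genotype. WT BMMCs were at 146, 169, 125, 175 and 139, within and around the span of the GMPs, and Prss57-/- BMMCs at 138, 150, 88.6, 135 and 139, with the low value in library 3.

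Tph1 (ENSMUSG00000040046, chr7:46644641-46672537, minus strand), the first enzyme of serotonin synthesis outside the brain, had no reads in any of the 16 GMP and CMP libraries. In WT BMMCs it was at 506, 627, 438, 334 and 351 normalized RPKM, and in Prss57-/- BMMCs at 593, 386, 878, 222 and 254. It was the most abundant of the 9 genes in BMMCs of both genotypes by mean. A count of 0 allows up to 3 reads per library, which is a mean of 0.0653 in WT GMPs once scaled to reads per 1e+06 sequenced.

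Ddc (ENSMUSG00000020182, chr11:11814101-11898144, minus strand), which finishes serotonin synthesis, had 0 to 8 reads per progenitor library. Its level in BMMCs was low and variable, at 4.27, 8.15, 3.24, 1.76 and 1.42 normalized RPKM in WT and 9.05, 4.11, 62.8, 0.75 and 0.954 in Prss57-/- libraries. Library 3 held 2248 of the 2916 Prss57-/- BMMC reads. The antisense gene 1700042O10Rik lies across Ddc and had 489 reads in that library against 2 to 23 in the other BMMC libraries. Whether the counting used strand was not given in the sources used here, so reads of the overlapping pair may not be told apart.

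The upstream sequences of the genes that set the cell types apart are shown from RefSeq (GRCm38.p6), each 250 bases up to the base before the annotated start, 5′ to 3′ on the gene's strand. Hdc is shown because its level sets CMPs apart from GMPs and BMMCs, and Tph1 because it had reads in BMMCs alone. Slc18a2 is shown because it is the shared granule transporter. A window was found for 8 of the 9 genes, with 2 for Tph1 and Ddc. RefSeq starts can differ from the GENCODE gene intervals printed with each gene. The Hdc window and the second Tph1 and Ddc windows lie inside those intervals, and the Hnmt window overlaps its interval in part. Windows were searched on both strands for 6 short motifs. AGATAA is a GATA-type site, and so is the motif TGATAA. The motif CACGTG is an E-box of the kind MITF binds, as is CATGTG. The motif TGACTCA is the AP-1 site, and the motif GAGGAA is of the ETS type that PU.1 binds. Capitals mark a match.
Hdc, chr2:126618679-126618928, minus strand: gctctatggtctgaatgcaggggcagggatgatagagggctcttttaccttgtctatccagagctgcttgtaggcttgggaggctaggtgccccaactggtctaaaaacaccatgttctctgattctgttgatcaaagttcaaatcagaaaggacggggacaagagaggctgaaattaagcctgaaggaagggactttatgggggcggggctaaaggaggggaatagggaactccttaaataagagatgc
Tph1, first window, chr7:46672538-46672787, minus strand: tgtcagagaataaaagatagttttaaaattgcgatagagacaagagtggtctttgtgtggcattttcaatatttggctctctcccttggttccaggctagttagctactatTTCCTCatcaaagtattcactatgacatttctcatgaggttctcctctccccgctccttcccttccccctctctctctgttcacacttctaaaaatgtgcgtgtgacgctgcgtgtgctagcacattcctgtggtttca
Tph1, second window, chr7:46667378-46667627, minus strand: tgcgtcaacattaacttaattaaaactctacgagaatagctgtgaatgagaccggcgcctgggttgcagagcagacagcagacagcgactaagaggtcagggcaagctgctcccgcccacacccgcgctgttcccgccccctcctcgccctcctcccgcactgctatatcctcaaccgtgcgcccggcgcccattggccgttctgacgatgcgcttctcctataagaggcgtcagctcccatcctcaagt
Slc18a2, chr19:59260628-59260877, plus strand: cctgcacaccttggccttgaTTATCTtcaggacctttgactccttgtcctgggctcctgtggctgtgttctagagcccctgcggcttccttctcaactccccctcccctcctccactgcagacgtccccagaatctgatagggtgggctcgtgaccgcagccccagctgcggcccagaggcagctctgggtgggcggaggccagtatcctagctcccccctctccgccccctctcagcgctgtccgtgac
The capitals in the first Tph1 window are GAGGAA on the opposite strand, 139 bases before the start, and those in Slc18a2 are AGATAA on the opposite strand, 230 bases before it. The Hdc window and the second Tph1 window held none of the 6 motifs. Among the others, Maoa held TGATAA, Slc6a4 CATGTG and Slc22a3 GAGGAA, and Ddc and Hnmt none. Of all 32851 RefSeq windows of this length, 9.99% held AGATAA, 7.94% TGATAA, 6.02% CACGTG, 12.3% CATGTG, 4.46% TGACTCA and 23.3% GAGGAA, so matches of this kind are common. They describe letters in these windows and not binding.

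Slc18a2 (ENSMUSG00000025094, chr19:59260896-59296012, plus strand), which loads both amines into granules, ran opposite to Hdc between the progenitors. The 4 WT CMP libraries were at 9.3, 10.7, 10.1 and 9.29 normalized RPKM and the 4 WT GMP libraries at 5.63, 5.82, 5.56 and 4.43. The Prss57-/- CMP libraries were at 8.01, 9.58, 10.3 and 8.29 and the Prss57-/- GMP libraries at 6.52, 6.44, 4.29 and 5.28, so CMPs stood above GMPs without overlap in both genotypes. In BMMCs it reached 152, 194, 160, 222 and 168 in WT and 171, 155, 470, 143 and 143 in Prss57-/- libraries. Library 3 lay above the WT range, libraries 4 and 5 just below it, and every BMMC library far above every progenitor library. The antisense gene Gm29261 within it had at most 7 reads in any library.

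Slc22a3 (ENSMUSG00000023828, chr17:12418960-12507704, minus strand), the low-affinity transporter OCT3, was the most abundant of the 9 in CMPs by mean. WT CMPs were at 30.5, 27.2, 32.5 and 28.4 normalized RPKM and WT GMPs at 7.75, 10.3, 9.17 and 8.29. Prss57-/- CMPs were at 36.6, 20.7, 29.6 and 28.8 and Prss57-/- GMPs at 12.5, 9.5, 6.82 and 7.93, again with no overlap. BMMCs were lower, at 4.96 ± 2.05 in WT (n = 5) and 4.07 ± 3.46 in Prss57-/- (n = 5), and 5.03 ± 3.12 without library 3 (n = 4). Plg, whose end overlaps Slc22a3 on the other strand, had at most 76 reads in a library. Slc6a4 (ENSMUSG00000020838, chr11:76998603-77032340, plus strand), the serotonin transporter, was low throughout, between 0.0834 and 4.65 normalized RPKM over the 26 libraries.

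Among the enzymes of breakdown, the monoamine oxidases differed from each other. Maoa (ENSMUSG00000025037, chrX:16619698-16687818, plus strand) was at 7.09 ± 1.41 normalized RPKM in WT CMPs, 8.97 ± 2.09 in WT GMPs (n = 4 each) and 5.31 ± 0.729 in WT BMMCs (n = 5). Maob (ENSMUSG00000040147, chrX:16709282-16817366, minus strand), its neighbour on the X chromosome, had 0 to 38 reads in each progenitor library. In BMMCs it read 130, 133, 105, 113 and 106 in WT and 122, 94.3, 305, 79.3 and 76 in Prss57-/- libraries. Every BMMC library thus lay far above every progenitor library for Maob, while for Maoa the BMMC and progenitor ranges met. Hnmt (ENSMUSG00000026986, chr2:24002910-24049394, minus strand), which inactivates histamine inside cells, was at 6.74 ± 1.75 in WT CMPs, 11.5 ± 2.64 in WT GMPs (n = 4 each) and 2.38 ± 0.401 in WT BMMCs (n = 5).

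Ordered by mean normalized RPKM, WT GMPs ran Hdc, Hnmt, Maoa, Slc22a3, Slc18a2, Slc6a4, Maob, Ddc and Tph1. Hdc stood clear of the rest there, while the libraries of Hnmt and Maoa, of Maoa and Slc22a3, and of Ddc and Tph1 overlapped. In WT CMPs the order was Slc22a3, Hdc, Slc18a2, Maoa, Hnmt, Slc6a4, Maob, Ddc and Tph1, with overlap between Maoa and Hnmt and between Ddc and Tph1. WT BMMCs ran Tph1, Slc18a2, Hdc, Maob, Maoa, Slc22a3, Ddc, Slc6a4 and Hnmt. There, Tph1 stood clear of Slc18a2 and Maob of Maoa, and every other pair of neighbours overlapped.

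The first comparison was between GMPs and CMPs of the same genotype. Hdc rose and Slc22a3 fell in GMPs of both genotypes, and no other amine gene was called. Of the 9 genes, 7 passed the filter on low counts, and 2 of the 7 were called in WT, where 12.8% of the 14967 genes tested were called (6.28% higher and 6.53% lower in GMPs). In Prss57-/- cells 2 of 7 were called, against 8.42% of 14959 (4.04% higher and 4.38% lower). Hdc was 8.8-fold higher in WT GMPs than in WT CMPs, a log2 fold change of 3.14 (SE 0.209, edgeR adjusted p = 3.11e-06), and 7.56-fold higher in Prss57-/- cells, a log2 fold change of 2.92 (SE 0.259, edgeR adjusted p = 0.000147). Slc22a3 changed by -1.72 on the log2 scale in WT (SE 0.124, edgeR adjusted p = 4.15e-06) and by -1.61 in Prss57-/- (SE 0.242, edgeR adjusted p = 0.00173). Slc22a3 was not called in either genotype when all 26 libraries shared one fit (edgeR adjusted p = 0.0122 and 0.0142), and it was called under each of the other 16 alternatives.

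**Figure D2:**
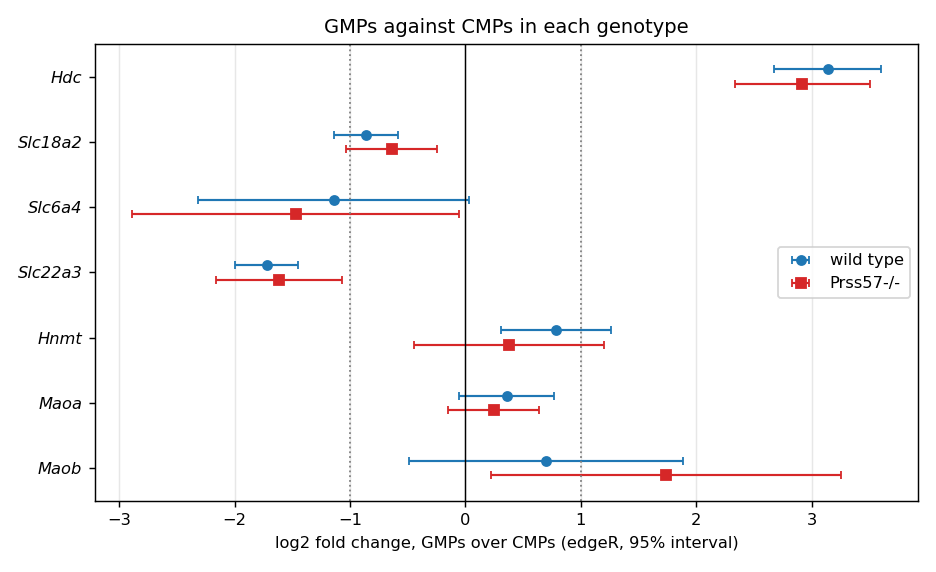
Log2 fold change of GMPs over CMPs for the 7 amine genes tested, with 95% intervals from edgeR, in wild type (blue circles) and Prss57-/- (red squares). Dotted lines mark a 2-fold change. Hdc lies near 3 and Slc22a3 between -2 and -1 in both genotypes.

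Slc18a2 moved less, at -0.86 in WT (SE 0.124, edgeR adjusted p = 0.000427) and -0.64 in Prss57-/- (SE 0.177, edgeR adjusted p = 0.0308), both under the 2-fold limit. Hnmt was 0.78 higher on the log2 scale in WT GMPs (edgeR adjusted p = 0.0164) and 0.38 in Prss57-/- GMPs (edgeR adjusted p = 0.444). Maob stood at 0.70 in WT (edgeR adjusted p = 0.32) and 1.74 in Prss57-/- (edgeR adjusted p = 0.0907), on 0 to 38 reads per library. Slc6a4 stood at -1.14 in WT (edgeR adjusted p = 0.112), and was called only when WT CMP library 3 was left out (log2 fold change -1.47, edgeR adjusted p = 0.00745, the lowest of a range up to 0.333 over the alternatives). The median log2 fold change of the 7 genes was 0.36 in WT against -0.02 over all genes tested. Tph1, with 0 reads, and Ddc, with 0 to 8 reads per library, were too low to test.

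Markers of other lineages moved with the same comparison. The 5 basophil markers summed to 2062 normalized RPKM in WT GMPs and 49.6 in WT CMPs, led in GMPs by Prss34 at 1207, and the 6 eosinophil markers to 1962 and 24, led by Prg2 at 1846. The 4 neutrophil granule genes summed to 31699 in WT GMPs and 5694 in WT CMPs, led by Mpo. In the other direction, the 8 megakaryocyte and platelet markers summed to 1377 in WT CMPs and 82.5 in WT GMPs, led in CMPs by Pf4 at 1054, and the 6 erythroid markers to 899.8 and 40.2, led by Car1. All genes of these 5 lists had reads in both groups. Their part in the Hdc, Slc18a2 and Slc22a3 differences was not tested, and in bulk samples a change in the share of cells cannot be told from a change in RNA per cell.

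Over the 16 GMP and CMP libraries, the genes whose log2 CPM were most like those of Hdc by Pearson's r were Mpo (r = 0.997), Arsb (0.997), Gda (0.997), Alas1 (0.996) and Lbp (0.996). These libraries form separate GMP and CMP clusters, so the coefficients over all 16 include the step between them. Within the 8 GMP libraries r with Hdc was 0.346 for Mpo, 0.937 for Arsb, 0.715 for Gda, -0.365 for Alas1 and -0.607 for Lbp. Within the 8 CMP libraries it was 0.953 for Mpo, 0.933 for Arsb, 0.961 for Gda, 0.98 for Alas1 and 0.971 for Lbp, so Arsb alone of the 5 was above 0.9 within both cell types. For Slc18a2 the most alike were Phf6 (0.964), Il1rl1 (0.955), Il1r1 (0.955), Adgrl4 (0.954) and Slc24a5 (0.953). Il1rl1 encodes the IL-33 receptor ST2, found on mast cells. Within the 8 GMP libraries r with Slc18a2 was 0.77 for Phf6, 0.862 for Il1rl1, 0.954 for Il1r1, 0.755 for Adgrl4 and 0.862 for Slc24a5. Within the 8 CMP libraries it was 0.937 for Phf6, 0.621 for Il1rl1, 0.296 for Il1r1, 0.816 for Adgrl4 and 0.499 for Slc24a5. Tph1 has no such list, since it had no reads in these libraries.

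BMMCs were set beside the progenitors next. Compared with WT GMPs, 5 amine genes were higher in WT BMMCs (Slc18a2, Tph1, Ddc, Maob, Slc6a4) and Hnmt was lower. That is 6 of 9 called, where 51.7% of the 14754 genes tested were called (27.3% higher and 24.4% lower), so the count itself is near the background. Slc18a2 was 31.3-fold higher, a log2 fold change of 4.97 (SE 0.154, edgeR adjusted p = 7.59e-11). Maob rose by 9.03 on the log2 scale (SE 0.21, edgeR adjusted p = 1.67e-11). Tph1, with no reads in GMPs, was at least 31022-fold higher against the floor of 3 reads per library. Ddc had 848 reads in the 5 WT BMMC libraries and 16 in the 4 WT GMP libraries, a ratio of 82.6 per read sequenced, with an exact 95% counting interval of 50.6 to 145. Slc6a4 rose by 1.68 (SE 0.38, edgeR adjusted p = 0.00137), a call that was lost when all 26 libraries shared one fit (1.69, edgeR adjusted p = 0.0165). Hnmt changed by -2.36 (SE 0.178, edgeR adjusted p = 1.21e-07).

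Hdc was not called between WT BMMCs and WT GMPs, with a log2 fold change of -0.17 and a 95% interval of -0.41 to 0.08 (edgeR adjusted p = 0.184). Maoa and Slc22a3 were lower without reaching 2-fold, at -0.85 (edgeR adjusted p = 0.000283) and -0.93 (edgeR adjusted p = 0.00461). Scaling by library size alone carried both past 2-fold, at -1.03 and -1.12, and so did limma voom for Slc22a3 at -1.03. Leaving out WT BMMC library 1 also carried Slc22a3 past it, at -1.16. In Prss57-/- cells Hdc was lower in BMMCs than in GMPs by less than 2-fold, at -0.36 with a 95% interval of -0.70 to -0.02 (edgeR adjusted p = 0.0549). Without library 3 it was at -0.24 (-0.43 to -0.05, edgeR adjusted p = 0.0242), and over the alternatives it ran from -0.57 to -0.24 (adjusted p from 0.00932 to 0.143). The WT value ran from -0.36 to -0.09 over its own alternatives (adjusted p from 0.0108 to 0.492), and Hdc was not called under any of them in either genotype. The median log2 fold change of the 9 genes was 1.68 in WT, against -0.00 over all genes tested. In Prss57-/- cells it was 2.42, against 0.03. Both medians were the same with Tph1 set at its bound, which could not move them because Tph1 stayed the highest of the 9.

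Against WT CMPs, 7 of 9 amine genes were called, with a background of 57.5% of 15007 genes (29.6% higher and 27.9% lower). Hdc was 7.78-fold higher in WT BMMCs (log2 fold change 2.96, SE 0.19, edgeR adjusted p = 1.23e-08) and Slc18a2 17-fold higher (4.09, SE 0.138, edgeR adjusted p = 5.44e-11). Tph1 was at least 26917-fold higher against the same floor, and Ddc and Maob were higher too. Slc22a3 fell by 2.67 on the log2 scale and Hnmt fell by 1.59 (edgeR adjusted p = 4.02e-07 and 6.78e-06). Ddc had only 3 reads in the WT CMP libraries, so its ratio of 386.6 carries a counting interval of 132 to 1878.

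Markers of other cell types moved with the step to BMMCs. The 11 macrophage and dendritic cell markers summed to 2099 normalized RPKM in WT BMMCs, 119 in WT GMPs and 148 in WT CMPs, led in BMMCs by Cd74, and 9 of them were higher and 2 lower in WT BMMCs than in WT GMPs. The 4 neutrophil granule genes summed to 825 in WT BMMCs against 31699 in WT GMPs, and all 4 were lower. The eosinophil markers summed to 13.9 and the erythroid markers to 5.03 in WT BMMCs, below the means of both progenitors. The megakaryocyte and platelet markers summed to 1029 there, led by Pf4 at 601, against 82.5 in WT GMPs, with 4 of 8 higher and 4 lower. The basophil markers summed to 3983, led by Fcer1a, which mast cells share, and the proteases Mcpt8 and Prss34 were lower than in WT GMPs (log2 fold changes -2.08 and -2.46, edgeR adjusted p = 8.56e-08 and 6.46e-07). The part of these cell types in the amine gene differences was not tested.

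The same 2 comparisons in Prss57-/- cells gave 6 of 9 called against GMPs, with a background of 47.9% of 14929 genes (25.6% higher and 22.3% lower), and 6 of 9 against CMPs, with 52.3% of 15112. Without library 3 the counts were 6 and 7, with no share of all genes set beside them. Leaving out any 1 library, all called genes numbered 6595 to 7616 against GMPs and 7137 to 8382 against CMPs. Slc18a2 was 5.17 higher on the log2 scale than in GMPs with all 5 BMMC libraries (SE 0.464) and 4.67 higher without library 3 (SE 0.154). Ddc had 2916 reads against 7 in GMPs, and its fitted log2 fold change was 9.65 (SE 1.94), or 7.58 without library 3 (SE 1.08). Under limma voom Ddc was not called against GMPs (adjusted p = 0.0411) or against CMPs (log2 fold change 7.22, adjusted p = 0.0192). Hnmt against CMPs missed the limit with library 3 (-2.39, edgeR adjusted p = 0.0104) and passed it without (-2.06, edgeR adjusted p = 0.00125, over alternatives 4.84e-05 to 0.0365). Slc6a4 against GMPs was called at 2.42 (edgeR adjusted p = 0.00714) although the groups overlapped (over alternatives 8.37e-05 to 0.0211), and it missed the limit when any of 8 of the 9 libraries was left out, library 3 being the exception. Tph1 was at least 29338-fold higher than in Prss57-/- GMPs. WT and Prss57-/- BMMC comparisons share no libraries, but each set of BMMC comparisons shares its BMMC libraries.

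Between genotypes, no amine gene was called in any cell type. In GMPs 0 of 7 tested were called, with a background of 0.00681% of 14689 genes, which was Prss57 alone. In CMPs 0 of 7 were called with a background of 0.0067% of 14916, again Prss57, and in BMMCs 0 of 9 with 0.0% of 13938. In BMMCs no gene was called by edgeR, DESeq2 or limma voom, and 332 genes had an unadjusted edgeR p under 0.05. The edgeR adjusted p rounded to 1.00 for every amine gene tested in each cell type. Tph1 and Ddc were too low to test in GMPs and CMPs.

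**Figure D3:**
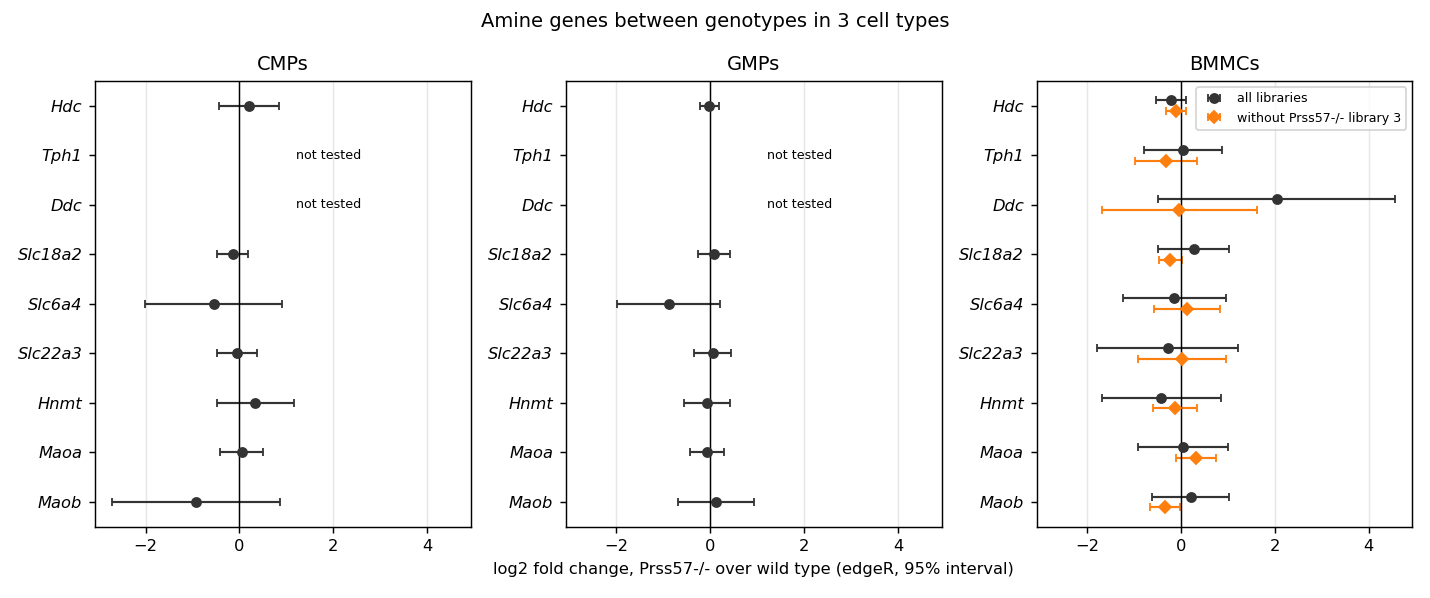
Log2 fold change of Prss57-/- over wild type for the amine genes in CMPs, GMPs and BMMCs, with 95% intervals from edgeR. Black circles use all libraries and, in BMMCs, orange diamonds leave out Prss57-/- library 3, which moves Ddc from 2.04 to -0.04. The interval of Hdc in GMPs, -0.23 to 0.19, is among the narrowest.

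The intervals set how large a change these libraries could have missed. For Hdc in GMPs the log2 fold change was -0.02 with a 95% interval of -0.23 to 0.19, from 0.853-fold to 1.14-fold. For Slc18a2 in GMPs it was 0.07 (-0.27 to 0.41), from 0.83-fold to 1.33-fold. For Slc6a4 in GMPs it was -0.89 (-1.98 to 0.21), a wide interval for a gene with 9 to 168 reads per library. In CMPs Hdc was at 0.20 (-0.44 to 0.84) and Slc18a2 at -0.14 (-0.48 to 0.19), and Maob, with at most 24 reads per library, at -0.92 (-2.71 to 0.86).

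In BMMCs the genotype values of 6 genes changed sign when library 3 was left out. Ddc was at 2.04 with it (95% interval -0.48 to 4.57) and -0.04 without it (-1.69 to 1.62). Slc18a2 went from 0.27 to -0.23 (-0.48 to 0.01), Tph1 from 0.05 to -0.32 (-0.98 to 0.35) and Maob from 0.20 to -0.34 (-0.65 to -0.03). Slc6a4 went from -0.15 to 0.12 (-0.57 to 0.82) and Slc22a3 from -0.29 to 0.02 (-0.91 to 0.96). The other 3 stayed on the same side, Hdc from -0.21 (-0.54 to 0.11) to -0.10 (-0.32 to 0.11), Hnmt from -0.42 to -0.12 (-0.59 to 0.35) and Maoa from 0.05 to 0.31 (-0.12 to 0.75). Other libraries turned signs too: Tph1 was below 0 without WT library 4, WT library 5 or Prss57-/- library 1, Maoa without WT library 2 or Prss57-/- library 1 or 5, and Slc6a4 was above 0 without WT library 4. Without the library the edgeR adjusted p of the 9 genes lay between 0.639 and 0.995, and no gene of 14162 tested was called, with 1031 at an unadjusted p under 0.05.

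**Figure D4:**
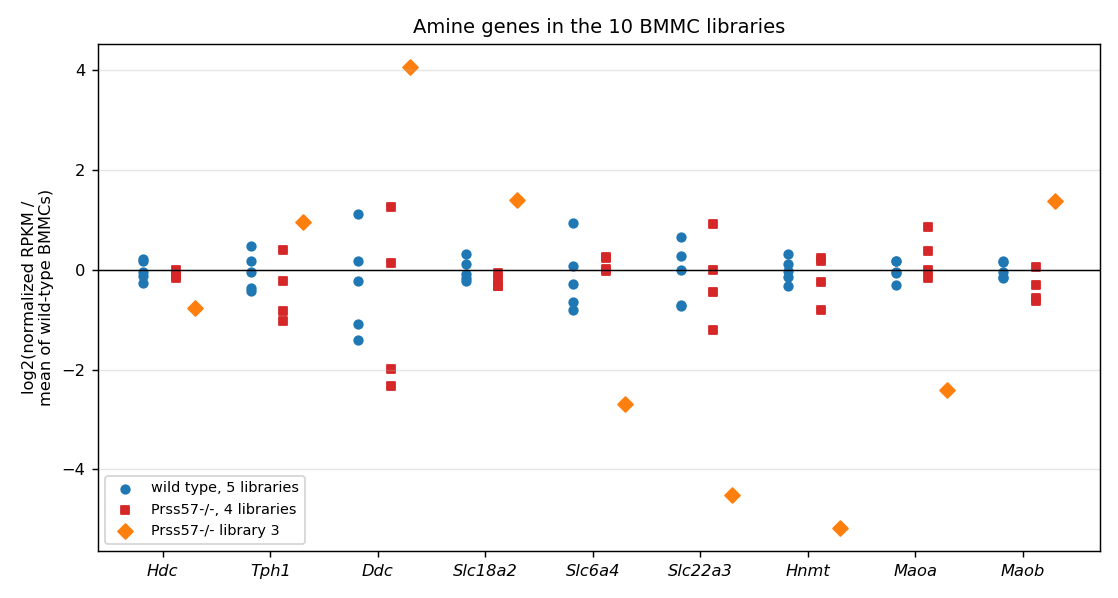
Level of the 9 amine genes in each BMMC library, as log2 of normalized RPKM over the mean of the 5 wild-type libraries. Blue circles are wild type, red squares 4 Prss57-/- libraries and orange diamonds Prss57-/- library 3. Library 3 is above all others for Tph1, Ddc, Slc18a2 and Maob and below all others for the other 5 genes.

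In library 3 the 9 genes moved both ways. Tph1 was at 2.13 times the mean of the other 9 BMMC libraries, Slc18a2 at 2.81, Maob at 2.86 and Ddc at 16.8 times. Hdc was 1.65-fold below that mean, Maoa 5.92-fold and Slc6a4 6.73-fold below. Slc22a3 was at 13 reads and Hnmt at 2 reads, where the other libraries had 157 to 922 and 67 to 119. The 6 mast cell markers higher there, with Tpsab1 and Mrgprb1 lower, and the 10 macrophage and dendritic cell markers lower there, with Cx3cr1 higher, move with these genes. So do other markers. The 5 basophil markers summed to 7756 normalized RPKM there against 3109 to 4895, with Fcer1a and Ms4a2, which mast cells share, and Cd200r3 highest (6786 against 2189 to 3668, 631 against 246 to 397, and 231 against 137 to 224) and the proteases Mcpt8 and Prss34 lowest (64 against 132 to 287, and 43.1 against 153 to 381). Of 8 megakaryocyte and platelet markers 5 were lowest there, with Pf4 at 72.3 against 497 to 826, and Itga2b and Gp5 were highest, at 918 and 50.5 against 222 to 414 and 6.68 to 10.9. Of the 5 genes of the progenitor gates, Kit, Cd34 and Ly6a, which encodes SCA-1, were highest (1002 against 277 to 734, 398 against 133 to 262, and 857 against 115 to 379), Fcgr2b was lowest at 39 against 66.7 to 99.6, and Fcgr3 lay within the range of the others. The part of these markers was not tested.

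The difference of the GMP-to-CMP step between genotypes was tested as an interaction. None of the 7 amine genes was called, with a background of 0.0% of 15900 genes, 169 of them at an unadjusted p under 0.05 by edgeR and none called by DESeq2. For Hdc the interaction was -0.23 on the log2 scale (95% interval -0.90 to 0.45) and for Slc18a2 0.21 (-0.23 to 0.65).

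Genes around the 9 were read from 5 lists: 16 other amine enzymes, 13 other transporters, 10 genes of cofactor supply (9 found), 4 histamine receptors and 14 serotonin receptors. Between WT GMPs and WT CMPs, 3 of 8 other enzymes tested were higher and none lower, and 1 of 7 transporters was higher and 2 lower. Of 9 cofactor genes, 2 were lower. Of 3 histamine receptors 1 was higher, and of 2 serotonin receptors 1 was higher and 1 lower. The median log2 fold changes were 0.09, -0.04, -0.54, 0.77 and 0.43 in that order, against -0.02 over all genes, of which 6.28% were higher and 6.53% lower.

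The other enzymes higher in GMPs were Hal, which diverts histidine to urocanate (log2 fold change 3.67, edgeR adjusted p = 0.00053), Aoc1, the diamine oxidase that breaks down extracellular histamine (3.27, edgeR adjusted p = 0.000565), and the aldehyde dehydrogenase Aldh1b1 (1.89, edgeR adjusted p = 2.96e-05). Aoc1 and Hal were low even in WT GMPs, at 0.839 and 0.295 normalized RPKM. The amino acid transporter Slc7a8 was higher in GMPs (1.25), and Slc18b1, a vesicular polyamine transporter, was lower (-2.23). Slc6a3, the dopamine transporter, was lower too, with 4 reads in all WT GMP libraries and 98 in all WT CMP libraries. Hrh4, the histamine H4 receptor of blood cells, had 255 reads in WT GMPs and 1 in WT CMPs, a ratio of 224 with an exact 95% counting interval of 39.8 to 8869. Htr1b was higher in GMPs (2.79) and Htr2a lower (-1.93).

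Of the 9 cofactor genes tested, 2 were lower in WT GMPs than in WT CMPs, and 2 were higher and 5 lower in WT BMMCs than in WT GMPs. Gch1, the first and rate-limiting enzyme of tetrahydrobiopterin synthesis, was at 5.49 normalized RPKM in WT CMPs, 2.22 in WT GMPs and 91.2 in WT BMMCs. It was lower in GMPs than CMPs (log2 fold change -1.29, edgeR adjusted p = 0.00014) and higher in BMMCs than GMPs (5.27, SE 0.129, edgeR adjusted p = 2.38e-11). Gchfr, which encodes the feedback regulator of Gch1, was at 8.94, 2.27 and 0.832 in the same order, lower at each step (-1.96, edgeR adjusted p = 0.00286, and -1.54, edgeR adjusted p = 0.00347). The later enzymes Pts (-1.68), Pcbd1 (-3.31) and Qdpr (-1.08) were lower in WT BMMCs than in WT GMPs. Pdxk, a vitamin B6 kinase that helps supply the cofactor of Hdc and Ddc, was higher (1.02).

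**Figure D5:**
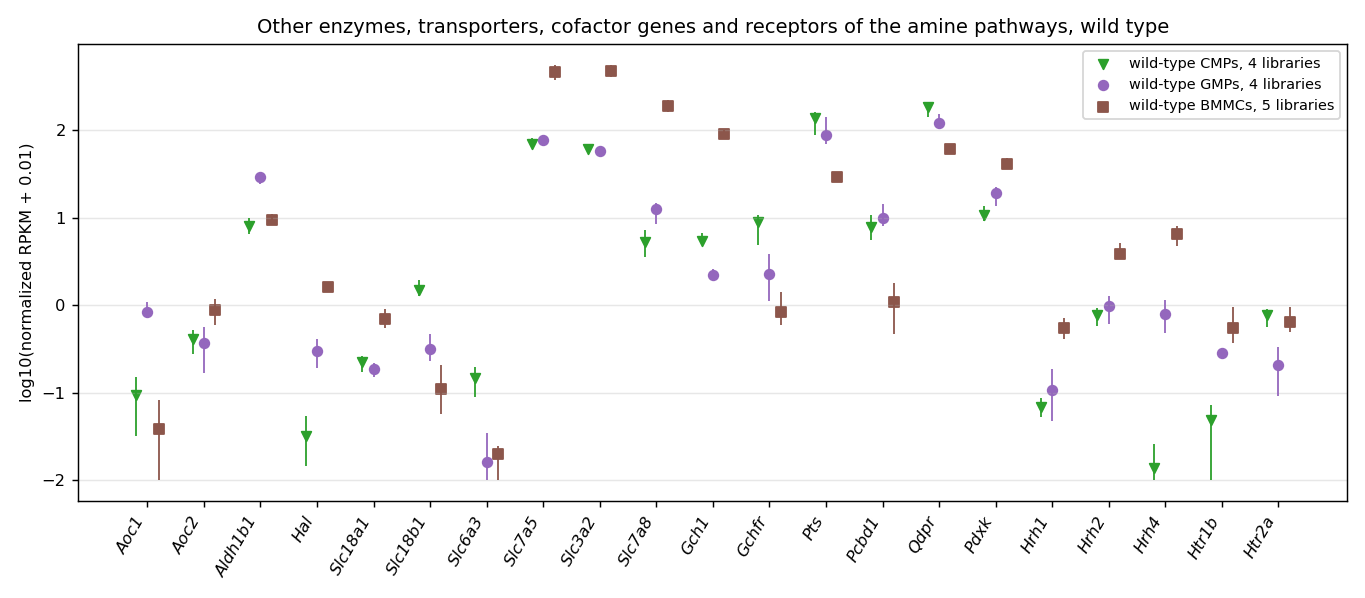
Mean normalized RPKM, on a log10 scale after adding 0.01, of 21 other pathway genes called in wild-type GMPs against CMPs or wild-type BMMCs against GMPs. Vertical lines run from the lowest to the highest library. Gch1, Slc7a8, Slc7a5 and Slc3a2 stand higher in BMMCs than in both progenitors, and Hrh4 is near 0 in CMPs.

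Over the lists, WT BMMCs against WT GMPs gave 3 higher and 2 lower of 8 other enzymes, 4 higher and 1 lower of 6 transporters, 2 higher and 5 lower of 9 cofactor genes, 3 of 3 histamine receptors higher and 1 of 2 serotonin receptors higher, beside 27.3% of all genes higher and 24.4% lower. The carriers of large neutral amino acids, which bring in tryptophan, rose: Slc7a5 to 464 normalized RPKM from 77.4, its partner Slc3a2 to 482 from 58.3 and Slc7a8 to 189 from 12.6. Slc18a1, the second vesicular monoamine transporter, rose by 1.85 on the log2 scale but stayed at 0.682 normalized RPKM, and Slc18b1 fell by 1.73. Among enzymes, Hal (2.36) and Aoc2 (1.16) were higher, and Aoc1 (-4.81, on 10 reads in the WT BMMC libraries) and Aldh1b1 (-1.72) were lower. The receptors Hrh4 (2.94), Hrh1 (2.37), Hrh2 (1.89) and Htr2a (1.59) were higher. No gene of the 5 lists was called between genotypes in GMPs, CMPs or BMMCs.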

How the data were processed

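Libraries were made with a stranded total RNA kit, and the authors aligned reads to GRCm38 with GSNAP (no version in the submitters' processing notes) and counted uniquely aligned reads in exons. Per library the authors deposited the raw count of each gene and normalized RPKM, which is RPKM adjusted by a size factor. Counts were tested with edgeR 4.0.16 (quasi-likelihood, robust, TMM, filterByExpr) in R 4.3.3, with only the groups compared in each fit and p-values adjusted across every tested gene by Benjamini-Hochberg. limma 3.58.1 and DESeq2 1.42.0 were alternatives. Tables used scipy 1.17.1 and pandas 2.3.3 (Python 3.11.15), and plots matplotlib 3.10.9. Identifiers were named from GENCODE M21, which matched 52403 of 52636 genes. The tests were also run on simulated counts, and the outcome is not given here. Those counts had no outlying library built in and no changed gene of low count. Members and lists were chosen with earlier results of these data known. Other genes named are those called in WT GMPs against WT CMPs or WT BMMCs against WT GMPs, at most 8 per list, apart from a few that are not reported here. Floors are 3 counts per library, and intervals on reads cover counting error only.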

Additional observations from a re-analysis of the deposited data

Results flagged for a closer look

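Of 50 sets of a gene and a group in which the libraries differed, 7 held a library set apart from the others by Dixon's 95% limit, where chance marks about 1 in 20. Prss57-/- BMMC library 3 gave 5 of them: Hdc at 88.6 normalized RPKM (the other 4 libraries 135 to 150), Slc18a2 at 470 (143 to 171), Ddc at 62.8 (0.75 to 9.05), Maob at 305 (76 to 122) and Slc6a4 at 0.376 (2.38 to 2.9). Hdc in WT GMP library 2 was at 178 against 150 to 153 in the other 3, and Maoa in Prss57-/- CMP library 2 at 10.1 against 6.28 to 6.91.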

How the results depend on the processing

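Between genotypes and in the interaction no amine gene was called under any of 579 alternatives. Each gene in each setting counts as 1 of these, and many settings share most of their libraries. The sign turned in 41 of them, 34 of which left out a library, and the cause was not tested. With library size alone Maoa was at -0.071 in CMPs and 0.013 in the interaction. In BMMCs limma voom gave Tph1 -0.075 and Maoa -0.19. A replicate block gave Tph1 -0.12, Maoa -0.18 and Maob -0.038 in BMMCs. Replicate numbers were not taken as pairs (lowest r between same-numbered libraries -0.32 in GMPs, -0.17 in CMPs, -0.26 in BMMCs). Between genotypes the mean r of same-numbered libraries was -0.0167 in GMPs, 0.161 in CMPs and -0.0569 in BMMCs. Other numbers gave means of 0.00988, -0.0579 and 0.0234. In that order 1 of 4, 2 of 4 and 0 of 5 libraries were best matched by their own number. Between GMPs and CMPs the lowest r between same-numbered libraries was -0.0065 in WT and 0.012 in Prss57-/-. The means were 0.136 and 0.188 against -0.0488 and -0.0607 for other numbers, and 1 of 4 libraries was best matched by its own number in each. In none of these sets was every pair above 0.1, but so few pairs cannot exclude that the numbers pair the libraries. The block left 0 amine genes called between genotypes and in the interaction and 2 in GMPs against CMPs of each genotype, with 2000 genes in WT and 1311 in Prss57-/-.

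Leaving out 1 library gave these log2 ranges between genotypes. In GMPs Hdc ran from -0.057 to 0.046, Maoa from -0.15 to 0.10, Maob from -0.027 to 0.34, Hnmt from -0.30 to 0.095 and Slc22a3 from -0.12 to 0.18. In CMPs Maoa ran from -0.12 to 0.16, Hnmt from -0.078 to 0.55 and Slc22a3 from -0.20 to 0.077. In BMMCs Slc18a2 ran from -0.23 to 0.39, Tph1 from -0.32 to 0.23, Ddc from -0.038 to 2.53, Maoa from -0.25 to 0.31, Maob from -0.34 to 0.35, Slc6a4 from -0.29 to 0.22 and Slc22a3 from -0.86 to 0.024. In the interaction Maoa ran from -0.22 to 0.040, Slc6a4 from -0.72 to 0.036 and Slc22a3 from -0.071 to 0.25.

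Called amine genes numbered 2 to 3 in WT and 2 in Prss57-/- GMPs against CMPs, 6 to 7 and 4 to 6 in WT and Prss57-/- BMMCs against GMPs, and 7 and 5 to 7 against CMPs, leaving out 1 library. All called genes then numbered 1542 to 2515 and 785 to 2266 in GMPs against CMPs, 7510 to 7827 and 6595 to 7616 in BMMCs against GMPs, 8420 to 8938 and 7137 to 8382 in BMMCs against CMPs, and 1 to 2 between genotypes in GMPs. One fit of all 26 libraries called 1 amine gene in GMPs against CMPs of each genotype, beside 1932 of 16758 genes in WT and 2307 of 16758 in Prss57-/-. An adjusted p under 0.05 with no fold limit called 4 of 7 amine genes and 5664 of 14967 genes in WT GMPs against CMPs. In Prss57-/- cells it called 3222 of 14959 genes. In BMMCs against GMPs it called 12030 of 14754 genes in WT and 11032 of 14929 in Prss57-/-. Between genotypes in GMPs it called 2 of 14689. DESeq2 called 2156 genes in Prss57-/- GMPs against CMPs, and 2 and 3 between genotypes in GMPs and CMPs. With at least 10 counts in every library, which drops genes near 0 in 1 group, there were 0 in both. The called amine genes then were 4 in WT and 3 in Prss57-/- BMMCs against CMPs and 2 in Prss57-/- BMMCs against GMPs. Tph1 and Ddc were dropped from each of these BMMC tests, and Maob from those against CMPs. Hnmt was dropped from those in Prss57-/- cells, and Slc6a4 from Prss57-/- BMMCs against GMPs. No share of all genes called was set beside the amine gene counts with this filter or with 1 library left out. Those counts are therefore not compared with a background.

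Library size alone shifted the median log2 fold change of all genes by -0.13 in WT GMPs against CMPs and by -0.19 to -0.31 in BMMCs against progenitors, and changed 940 higher and 978 lower genes to 764 and 1228 in WT GMPs against CMPs, and 604 and 655 to 408 and 701 in Prss57-/-, where the fit of all 26 libraries gave 871 and 1436. In WT BMMCs library size alone changed 4027 higher and 3603 lower genes to 3636 and 4231 against GMPs, and 4438 and 4192 to 3729 and 5132 against CMPs, and in Prss57-/- BMMCs 3824 and 3326 to 3329 and 3974, and 3962 and 3935 to 3269 and 4494. Among calls not given above, Hnmt in Prss57-/- BMMCs against GMPs was lost without Prss57-/- GMP or BMMC library 4, and Slc22a3 in Prss57-/- BMMCs against CMPs without Prss57-/- BMMC library 1 or 2. Ddc, Maob and Slc6a4 have few reads in progenitors, and intervals on their reads cover counting error only.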
